A study of Homo sapiens with 8 samples.

Results

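JARID2 and the genes of Polycomb repressive complex 2 (PRC2) were followed through Ago2-IP and total RNA of KM-H2 cells, a Hodgkin lymphoma cell line. The members were 10 genes given by name, namely JARID2 and its complex partners EZH1, EZH2, EED, SUZ12, AEBP2, MTF2, PHF19, RBBP4 and RBBP7. Of the 41000 probes on the array 14 matched 9 of these genes by the transcript identifier in the scanner files. No probe was matched to EED, which was not analysed here. The array does hold a probe for it, under a retired identifier that could not be matched to a gene name. JARID2 had 1 probe and its 8 measured partners had 13. All 14 were retained, as were 17912 probes in all, meaning that at least 4 of 8 channels were well above background and that the dyes gave values within 2-fold of each other in every sample.

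PRC2 is a chromatin complex that methylates histone H3 and keeps its target genes silent. EZH2, or its paralog EZH1, is the catalytic subunit, and it works only together with SUZ12 and EED, while RBBP4 and RBBP7 are histone-binding proteins shared with other chromatin complexes. MTF2 and PHF19 (Polycomb-like proteins) define one form of the complex, and JARID2 and AEBP2 define another. JARID2, a Jumonji family protein without demethylase activity, guides the complex to its targets and is a known target of miR-155. In germinal center B cells EZH2 is needed for proliferation.

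KM-H2 cells had been transduced with an empty pMSCV-PIG vector (EV) or with the same vector whose insert, a sponge with binding sites for miR-155, is made to capture this miRNA (miR-155-sp, called sponge cells here), and GFP+ cells were sorted. Each population is a transduced pool of one cell line, which the paper describes as having high miR-155 levels. Of each population total RNA (T) and RNA from an Ago2 immunoprecipitation (IP) were measured, so that there were 4 RNA samples, 1 per group. Each RNA was labelled once with Cy3 and once with Cy5, and a pair of arrays with swapped dyes held the IP and the T fraction of one population. The Cy3 and Cy5 values are technical labellings of the same RNA, so no test across samples was possible, no p-value is given, and every SD below is the spread between 2 labellings or 2 dye orientations. No difference has a replicate check.

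The share of gene spots well above background was 58.9% to 61.9% in the Cy3 channels and 38.8% to 43.4% in the Cy5 channels of the 4 arrays, whose number limits the precision. In total RNA 6 of 7 Hodgkin cell markers were well above background in all 4 channels, among them TNFRSF8 (CD30), CCL17 and TRAF1, while CCL22 was so in none. Of 6 B-cell markers only CD79A was detected in all 4 channels, and CD79B and PAX5 were so in none. Of the markers of other cell types, CD2 (1 of 4 T-cell genes) and CSF1R (1 of 3 monocyte genes) were detected in all 4 total RNA channels, and COL3A1, the only fibroblast gene with a matched probe, was so in at most 1 channel.

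The sequences that the sponge experiment turns on are those of the miR-155 hairpin, whose strands are shown with the seed (bases 2 to 8) in capitals. They are the RefSeq entries of build GRCh38.p14 and lie on the plus strand at chr21:25573983-25574006 (5p) and chr21:25574022-25574043 (3p).
hsa-miR-155-5p: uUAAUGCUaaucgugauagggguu
hsa-miR-155-3p: cUCCUACAuauuagcauuaaca
MiR-155-5p is the strand that the sponge is directed against. The reverse complement of its seed followed by A, the DNA form of a full target site, is AGCATTAA. Among 2370 mature human miRNAs in the table no other name shares either seed. Sites in the JARID2 transcript were not searched here.

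The first question was which PRC2 transcripts are enriched in the Ago2-IP over total RNA. The IP/T ratio of a probe, from processed scanner signals that were brought to one distribution in all channels, was taken as enriched from 2 upwards. In EV cells JARID2, EZH1, MTF2 and, on probe A_23_P100883 alone, SUZ12 were clearly enriched, with IP/T ratios between 4.71 and 6.48. The other SUZ12 probes lay just under the limit and at 1.21. EZH2 lay at the limit, and RBBP4 and RBBP7 lay below 1. By the leading probe of each gene, which is its brightest retained one, 5 of the 9 genes reached an IP/T of 2, against 15.9% of all 9471 genes retained. Counted by probe these were 7 of 14, against 14.8% of all retained probes. In sponge cells 6 of the 9 genes reached 2 (9 of 14 probes), against 16.6% of the genes and 15.6% of the probes. The median log2 IP/T of the 8 partners of JARID2 was 0.79 in EV cells, beside -0.18 for all retained genes.

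JARID2 (probe A_23_P214876, NM_004973) was well above background in all 8 channels. Its normalized log2 signal in EV cells was 8.90 (Cy3) and 9.0 (Cy5) in total RNA and 11.47 and 11.82 in the IP. In sponge cells it was 9.22 and 9.57 in total RNA and 11.23 and 11.37 in the IP. Every IP labelling was thus above every total RNA labelling, and the gap between the fractions was smaller in sponge cells. The log2 IP/T was 2.70 ± 0.32 (SD of 2 dye orientations) in EV cells and 1.91 ± 0.34 in sponge cells. In EV cells 2.91% of all retained probes had an IP/T as high.

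**Figure D1:**
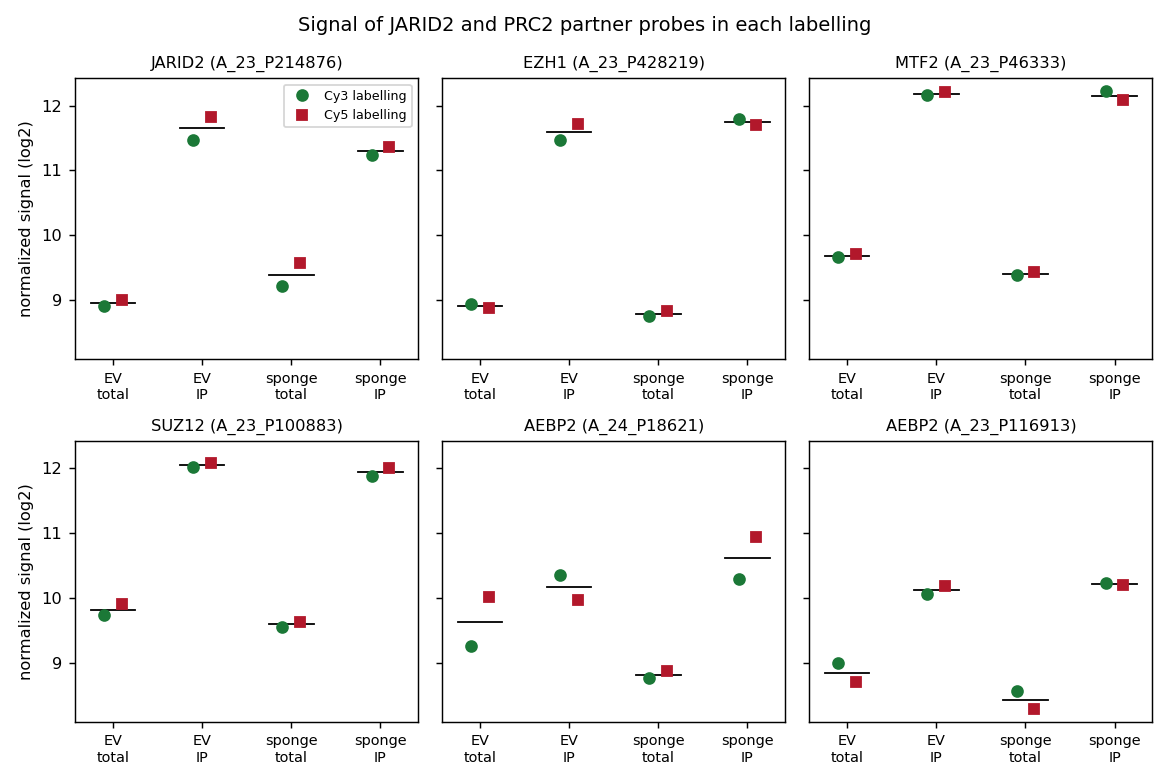
Normalized log2 signal of JARID2 and of the EZH1, MTF2, SUZ12 and AEBP2 probes in the 4 RNA samples, total and IP RNA of EV and sponge cells. Circles are Cy3 and squares Cy5 labellings of the same RNA, and bars their mean. JARID2 has a higher total and a lower IP signal in sponge cells, and the labellings of AEBP2 A_24_P18621 lie far apart in EV total and in sponge IP.

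The catalytic subunits differed from each other. EZH1 (A_23_P428219) had log2 signals of 8.94 and 8.88 (Cy3 and Cy5) in EV total RNA and 11.47 and 11.71 in EV IP, and of 8.75 and 8.84 in sponge total RNA and 11.80 and 11.70 in sponge IP. Its IP/T was 6.42 in EV cells (6.83 for the orientation with IP in Cy5, 6.04 for the other, an order kept for every pair of IP/T values in parentheses), next to that of JARID2, from which its range over the orientations did not separate it. EZH2 (A_23_P259641) had log2 signals of 13.40 and 13.18 in EV total RNA and 14.50 and 14.10 in EV IP, and of 13.56 and 13.01 in sponge total RNA and 14.46 and 14.30 in sponge IP. Its IP/T was 2.01 in EV cells, but 1.62 in one orientation and 2.50 in the other, so that the orientations lay on both sides of the limit. In sponge cells IP/T was 7.76 for EZH1 and 2.13 (1.67 and 2.72) for EZH2. The ratio of EZH1 exceeded that of EZH2 in both orientations of both populations.

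SUZ12, the subunit that holds the complex together, gave values that depended on the probe. A_23_P100883 had log2 signals of 9.73 and 9.90 in EV total RNA, 12.02 and 12.09 in EV IP, 9.56 and 9.63 in sponge total RNA and 11.88 and 12.00 in sponge IP. Its labellings lay close together and its IP/T was 4.71 in EV cells (5.11 and 4.34) and 5.07 in sponge cells. For A_32_P24223 the IP/T was just under the limit in EV cells (1.85 and 2.16) and 2.72 in sponge cells (2.20 and 3.35). For A_24_P873263 it was 1.21 (1.04 and 1.42) and 1.19 (0.961 and 1.48). All 3 probes carry the identifier NM_015355 and each was well above background in every channel. The RefSeq table lists 2 pseudogenes of SUZ12 and 7 of RBBP4, and whether the probes of these genes also bind such copies was not tested.

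Of the Polycomb-like proteins, MTF2 (A_23_P46333) was among the most enriched members, with labellings that lay close together. Its log2 signals were 9.66 and 9.71 in EV total RNA, 12.17 and 12.20 in EV IP, 9.39 and 9.43 in sponge total RNA and 12.22 and 12.08 in sponge IP. The IP/T was 5.65 in EV cells (5.82 and 5.49) and 6.69 in sponge cells (6.46 and 6.92). PHF19 was near or below the limit. Its probe A_23_P401904 (NM_001009936) had a ratio of 1.48 in EV cells (1.24 and 1.77) and 1.39 in sponge cells (1.15 and 1.69). A_23_P21436, which carries the identifier of another transcript (NM_015651), had 2.23 (2.03 and 2.45) and 2.07 (1.59 and 2.70).

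AEBP2, a zinc finger protein found with JARID2 in the same form of the complex, had a different IP/T in EV than in sponge cells. The size of this difference depended on the probe, the labelling and the processing. A_24_P18621 had log2 signals of 9.25 and 10.01 in EV total RNA, 10.36 and 9.97 in EV IP, 8.77 and 8.87 in sponge total RNA and 10.29 and 10.94 in sponge IP. In EV cells the IP and total RNA labellings of this probe overlapped, whereas in sponge cells both IP values lay above both total RNA values. Its IP/T was 1.45 in EV cells (1.65 and 1.27) and 3.47 in sponge cells (4.51 and 2.68). A_23_P116913 had log2 signals of 8.99 and 8.71 in EV total RNA, 10.06 and 10.18 in EV IP, 8.57 and 8.29 in sponge total RNA and 10.23 and 10.20 in sponge IP. On this probe the fractions were separate in both populations, and the IP/T was 2.41 (2.28 and 2.55) and 3.45 (3.1 and 3.84). The probes thus gave nearly the same ratio in sponge cells and differed in EV cells.

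The histone-binding proteins were not enriched. RBBP7 (A_23_P114221) had a ratio of 0.890 in EV cells (0.956 and 0.829) and 0.820 in sponge cells (0.857 and 0.785), with log2 signals between 13.89 and 14.25 in all 8 channels. RBBP4 had 0.826 (0.803 and 0.849) and 0.918 (0.905 and 0.932) on A_23_P326691. Its probe A_24_P912095 was well above background in the Cy3 labellings but not in the Cy5 labellings, and gave 0.952 and 1.01. No member had an IP/T of 0.5 or less in either population, which 12.9% (EV) and 14.1% (sponge) of retained probes had.

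By leading probe the order of IP/T in EV cells was JARID2, EZH1, MTF2, SUZ12, EZH2, PHF19, AEBP2, RBBP7 and RBBP4. The ranges over the dye orientations overlapped between JARID2 and EZH1, between EZH2 and PHF19, between PHF19 and AEBP2 and between RBBP7 and RBBP4, while the other neighbours were separate. In sponge cells the order was EZH1, MTF2, SUZ12, JARID2, AEBP2, EZH2, PHF19, RBBP4 and RBBP7. JARID2 was thus at place 1 in EV and at place 4 in sponge cells, and AEBP2 at places 7 and 5. The places of SUZ12 and of the genes below it in EV cells depended on the probe. There AEBP2 A_23_P116913 (log2 IP/T 1.27) and PHF19 A_23_P21436 (1.16) were above EZH2 (1.01), unlike the leading probes of these genes. SUZ12 A_32_P24223 (0.999) and A_24_P873263 (0.280) were below EZH2. In sponge cells these SUZ12 probes (1.44 and 0.253) were below JARID2 (1.91), so that the place of JARID2 there depended on the SUZ12 probe. The first place in EV cells depended on the processing. With normexp MTF2 (log2 IP/T 2.07 or 2.23) was above JARID2 (1.95 or 2.05), by the Cy5 labellings alone EZH1 (2.83) was level with JARID2 (2.82), and the range of MTF2 over the orientations lay partly within that of JARID2. In sponge cells the ranges overlapped between JARID2 and AEBP2, between AEBP2 and EZH2 and between EZH2 and PHF19.

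**Figure D2:**
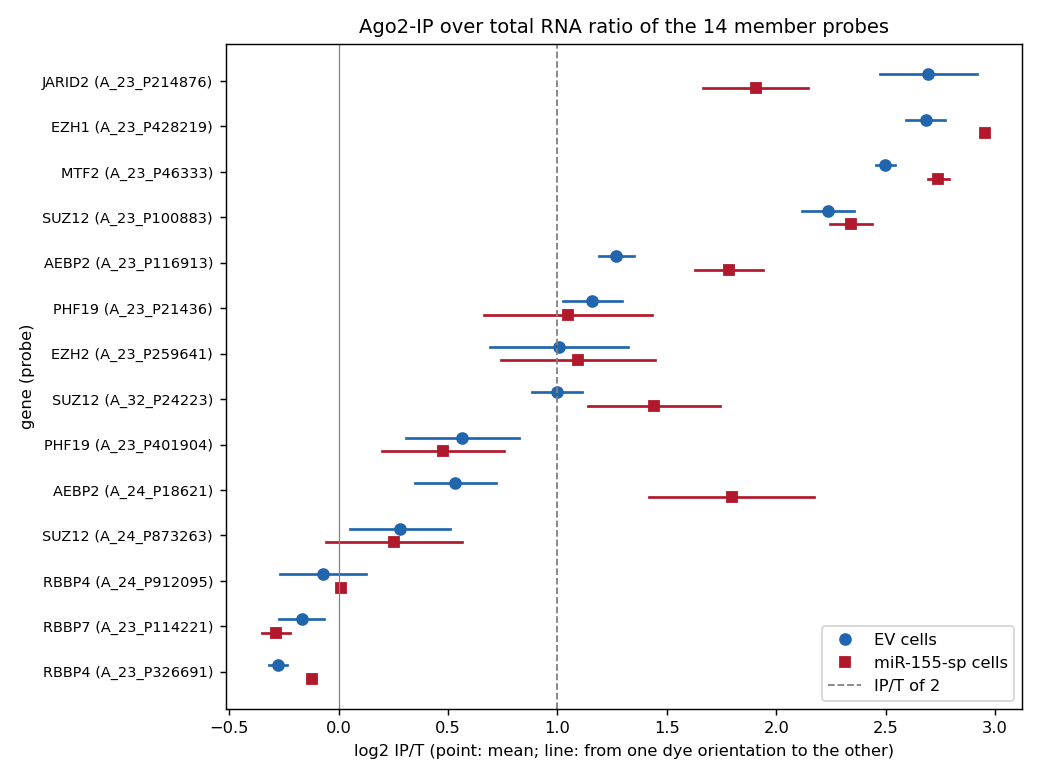
Log2 IP/T of the 14 member probes in EV cells (circles) and sponge cells (squares). Points are means and lines run from one dye orientation to the other, with an IP/T of 2 dashed. The EV and sponge lines are separate and furthest apart for AEBP2 A_24_P18621 (0.53 and 1.80) and for JARID2 (2.70 and 1.91), in opposite directions.

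The second question was which of these transcripts had a lower IP/T in cells with the sponge, a ratio in which both fractions count. How much miR-155 the sponge held back was not measured on these arrays. JARID2 was the member with the largest difference downwards and AEBP2 the one with the largest upwards, except by the Cy3 labellings alone, where RBBP4 A_24_P912095 (-0.61) was below JARID2. The IP/T of JARID2 was 1.73-fold lower in sponge than in EV cells, and that of AEBP2 was 2.40-fold higher on A_24_P18621. No other member probe differed by 1.5-fold or more in either direction. Among all retained probes 3.55% were lower and 3.99% higher by that fold, so that 1 of 14 in each direction is not far from the background.

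For JARID2 the log2 difference of IP/T, sponge minus EV, was -0.79 ± 0.024 (SD of dye orientations), with -0.77 and -0.81 in the dye orientations. Between the Cy3 and Cy5 labellings the SD of this difference was wider, 0.33. For differences of total RNA or IP RNA the SD given is that between the labellings. A difference as low was found for 285 probes, 1.59% of those retained. Enrichment in EV cells together with a ratio 1.5-fold or more lower in sponge cells was found for 0.586% of probes, JARID2 among them. For specific targets in the Hodgkin lines the paper required a ratio at least 2-fold lower with the sponge. At 1.73-fold in the main processing, JARID2 did not reach that limit. The paper did not choose JARID2 by this limit, but from miR-155 overexpression in a Burkitt lymphoma line, with a luciferase assay. In KM-H2 cells it reported a mild decrease of IP enrichment with the sponge for most of its selected targets. It proposes that the sponge did not capture all miR-155. The IP/T difference of JARID2 lay in both fractions. Total RNA of JARID2 was 0.44 ± 0.18 higher on the log2 scale (0.32 in Cy3, 0.57 in Cy5), which 3.46% of retained probes reached, and IP RNA was different by -0.35 ± 0.15 (-0.24 and -0.46), with 8.03% of probes as low. The RNA came from pools of cells, so a difference in all cells cannot be told apart from a larger one in some. The size depended on the processing. By the Cy3 labellings alone the difference of IP/T was -0.56, and with normexp background correction it was -0.47 or -0.50, all of them smaller than 1.5-fold, while by the Cy5 labellings alone it was -1.02.

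For AEBP2 A_24_P18621 the log2 difference of IP/T was 1.26 ± 0.27 (SD of dye orientations, 1.46 and 1.07), with an SD of 1.19 between the labellings. A difference as high was found for 42 retained probes (0.234%). Enrichment in sponge cells with a ratio 2-fold or more above that in EV cells was found for 0.458% of probes, this one included. That limit is stricter than the 1.5-fold one used for JARID2, so the shares are not to be compared. Total RNA differed by -0.81 ± 0.46 (-0.49 in Cy3, -1.14 in Cy5) and IP RNA by 0.45 ± 0.73. The IP difference was -0.069 in Cy3 and 0.97 in Cy5, so that its direction depended on the dye. By the Cy3 labellings alone the difference of IP/T was 0.42, less than 1.5-fold, and by the Cy5 labellings alone it was 2.11. On A_23_P116913 the difference of IP/T was 0.52 ± 0.11, with -0.42 in total RNA for both labellings and 0.096 ± 0.11 in IP RNA. With normexp the difference of IP/T was 0.99 or 0.89 on A_24_P18621 and only 0.23 or 0.11 on A_23_P116913. Both AEBP2 probes thus had lower total RNA and higher IP/T in sponge cells in each labelling and orientation, with a size that differed between the probes.

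**Figure D3:**
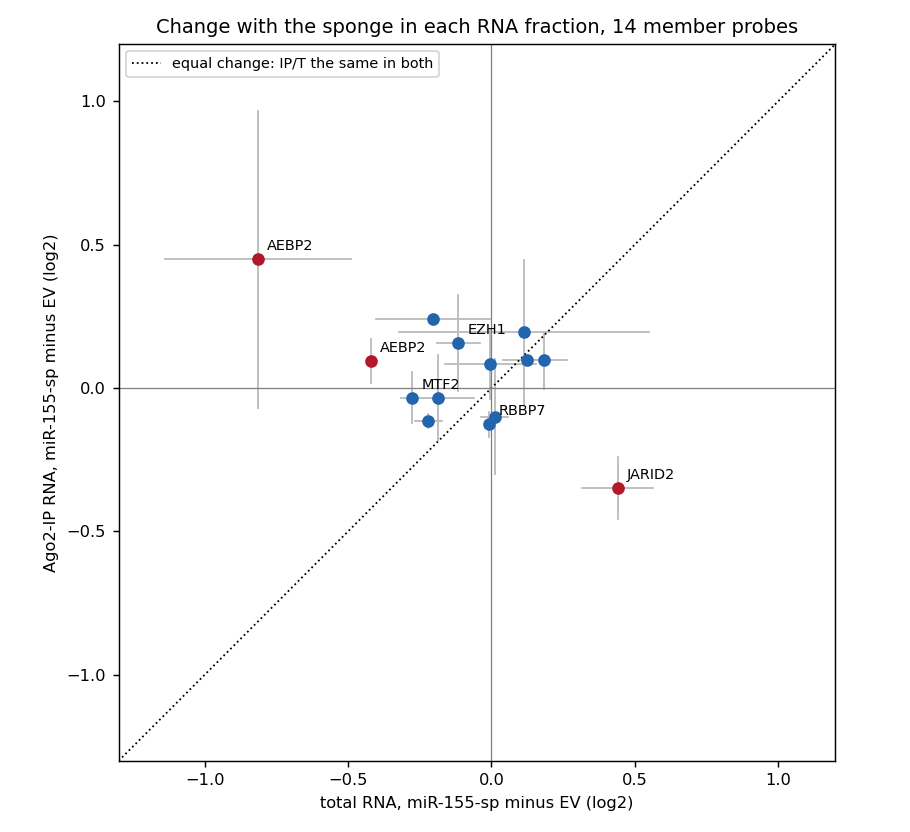
Difference between sponge and EV cells in total RNA (horizontal) and in Ago2-IP RNA (vertical) for the 14 member probes, in log2 units. Points are means and grey lines join the Cy3 and Cy5 labellings, and on the dotted line IP/T is the same in both populations. JARID2 lies farthest to the lower right (0.44 and -0.35), and the AEBP2 probes (-0.81 and 0.45, -0.42 and 0.096) lie at the upper left.

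The other partners differed little. Their log2 differences of IP/T lay between -0.12 (RBBP7) and 0.44 (SUZ12 A_32_P24223). EZH1 was at 0.27 ± 0.13, MTF2 at 0.24 ± 0.13, SUZ12 A_23_P100883 at 0.11 ± 0.032, EZH2 at 0.086 ± 0.054 and RBBP4 A_23_P326691 at 0.15 ± 0.028. The PHF19 probes were at -0.086 ± 0.028 and -0.11 ± 0.35, and SUZ12 A_24_P873263 at -0.027 ± 0.11. These SDs are of the dye orientations. Between the labellings the SD was 0.40 for EZH2 and 0.39 for RBBP4 A_23_P326691, but 0.12 for MTF2. The median over the 8 partners by leading probe was 0.13, beside -0.0044 for all retained genes. Of the 9 members 3 had a lower IP/T in sponge cells in both dye orientations (JARID2, PHF19 and RBBP7), against 30.6% of retained genes (30.3% of probes), and 6 had a higher one in both, against 30.8%. By the Cy3 labellings alone EZH2 (-0.19) and RBBP4 (-0.12) were lower and PHF19 (0.094) was higher, so that small differences of these genes took their direction from the labelling used. By leading probe total RNA had a difference below 0 for 7 of the 8 partners, against 4986 of all 9471 retained genes, with a median log2 difference of -0.15 beside -0.013. PHF19 (0.18) was above 0, EZH2 (-0.0037, with 0.16 in Cy3) and RBBP7 (-0.0079) were close to 0, and the other probes of SUZ12 (A_24_P873263, 0.13) and RBBP4 (A_24_P912095, 0.11) were above 0 as well. In total RNA AEBP2 A_24_P18621 was the only member probe lower by 1.5-fold or more and none was higher (2.31% and 1.29% of retained probes), and in IP RNA no member differed by that much (1.7% lower, 1.93% higher). In the means of both labellings JARID2 was outside the range of the partner probes in IP/T difference, in total RNA and in IP RNA, but by Cy3 alone RBBP4 A_24_P912095 was beyond it in IP/T difference and in total RNA (0.55 against 0.32).

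**Figure D4:**
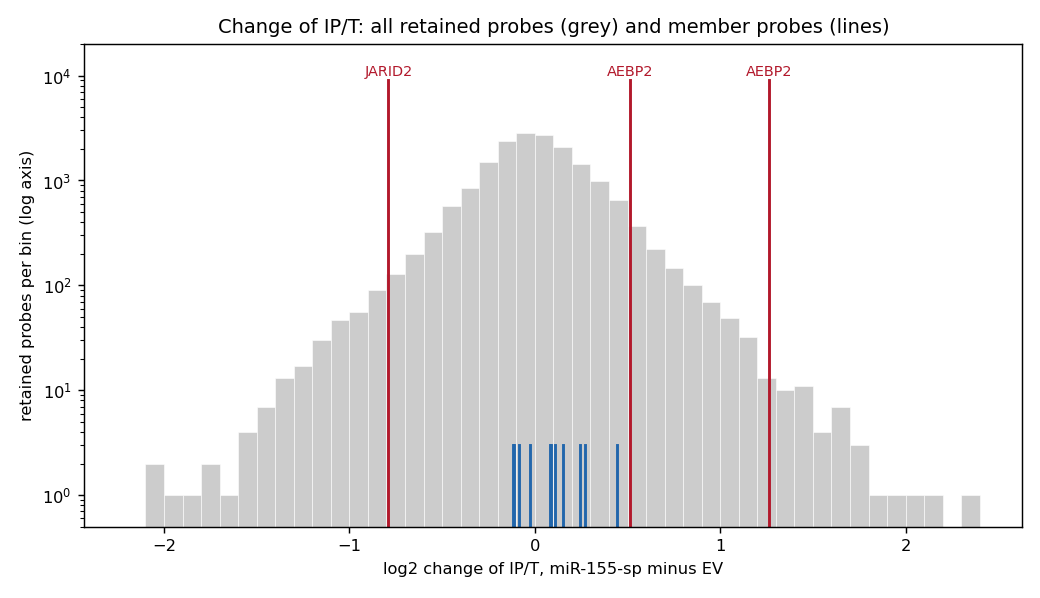
Number of retained probes by log2 difference of IP/T, sponge minus EV, in bins of 0.1 on a log axis (grey), with the 14 member probes as lines. JARID2 (-0.79) and AEBP2 (0.52 and 1.26) are the long lines, and the 11 short lines of the other probes lie between -0.12 and 0.44.

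To see which other transcripts had the pattern of JARID2, the 4 sample values of each probe were centred on their mean and compared over the 13432 retained probes well above background in all 8 channels. Among probes with a gene name the nearest was INPP5A, an inositol phosphatase, at a Euclidean distance of 0.15 log2 units, followed by DHRS7B (0.18), DET1 (0.21), SLC16A9 (0.23) and PRDM13 (0.24). DET1, a ubiquitin ligase component that the study followed together with JARID2, had the log2 difference of IP/T closest in size, -0.69 (-0.62 and -0.76), from 0.34 in total RNA and -0.35 in the IP. For the other genes the difference was between -0.52 (INPP5A) and -0.38 (SLC16A9). The nearest partner was SUZ12 A_23_P100883 at a distance of 0.50 (place 197 of all probes), then MTF2 at 0.64 (place 404) and EZH1 at 0.74 (place 570). These likenesses are over 4 samples only.

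The other Polycomb genes were taken from a list of 39, of which 34 had a matched probe and 27 a retained one. They comprise the ubiquitin ligase complex PRC1, further PRC2 proteins, the BAP1 deubiquitinase and several histone lysine enzymes. By leading probe 9 of the 27 reached a ratio of 2 in EV cells (15.9% of all retained genes) and 10 did in sponge cells (16.6%). Within PRC1 these were 6 of 18 in EV cells. The median log2 IP/T of the list was 0.0040 in EV cells and 0.21 in sponge cells, beside -0.18 and -0.20 for all retained genes. The highest IP/T in EV cells was that of LCOR (18.6, in the orientations 21.8 and 15.8), a gene one of whose isoforms is a PRC2 cofactor. It was followed by CBX7 (7.30), the chromodomain subunit of PRC1, by KDM6A (4.95), a demethylase that removes the mark PRC2 sets, and by PCGF3 (4.70), which defines a variant PRC1. The lowest were RING1 (0.440), a PRC1 ubiquitin ligase, BAP1 (0.462) and L3MBTL2 (0.582).

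None of the 27 genes differed by 1.5-fold or more in IP/T between the populations, while 2.54% of all retained genes were lower and 3.26% higher by that fold. The median of their log2 differences was 0.029. The largest downwards were those of PHC2 (-0.45), EHMT2 (-0.29) and KDM2B (-0.26), and among those upwards were ASXL2 (0.40) and MGA (0.37). PHC2, a polyhomeotic subunit of PRC1, was lower in both orientations (-0.32 and -0.58), with total RNA that differed by -0.0057. The difference of JARID2 was larger than that of any of these 27 genes, a comparison made with the main processing alone.

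**Figure D5:**
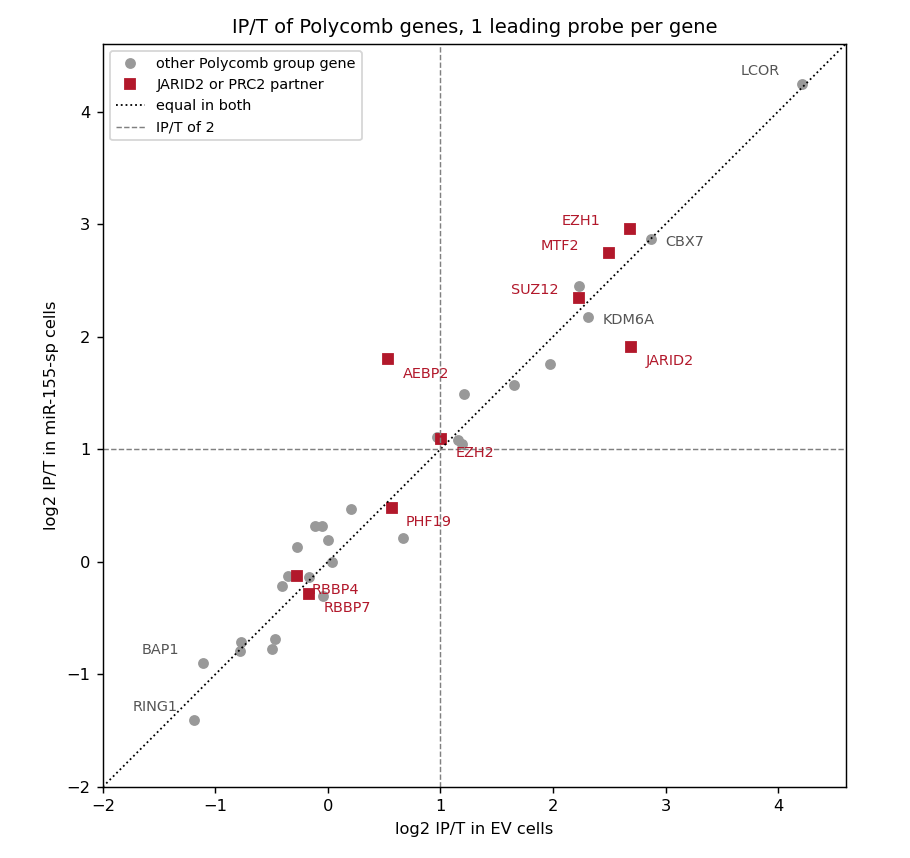
Log2 IP/T in EV cells (horizontal) against sponge cells (vertical) for 9 members (squares) and 27 other Polycomb group genes (circles), 1 leading probe per gene. The dotted line marks equal ratios and the dashed lines an IP/T of 2. Most genes lie along the dotted line, with JARID2 below it (2.70 and 1.91) and AEBP2 above it (0.53 and 1.80).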

How the data were processed

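Total and Ago2-IP RNA had been hybridized to 2-color Agilent human whole genome arrays. The deposited spot intensity values come from Agilent Feature Extraction, version 10.7.3.1 per the file headers and 10.5.1.1 per the labels, with background subtracted and dyes normalized in each array. The authors also deposited log2 values after quantile normalization. These were an alternative here. As both samples of an array share 1 scanner file, only the channel with a sample's own RNA was used.

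Control and outlier spots were left out. Spots of a probe were averaged. As in the study's methods, the 8 channels were then quantile-normalized on the log2 scale. Retained probes were well above background in 4 or more channels, with labellings that differed by no more than 2-fold in each sample. The mean of both labellings was used, and IP/T is their difference between fractions on the log2 scale. It is relative to all probes, so that an overall difference between the fractions is lost. Identifiers were matched to a RefSeq table of GRCh38.p14 (23958 of 41000 probes). Because the array design is of build hg18, gene coordinates are left out.

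Named were all member probes, the nearest 5 genes to JARID2, and of the list of other Polycomb genes the 4 highest, the 3 lowest, the 3 with the largest fall and the 3 with the largest rise of IP/T. Of these, 1 gene is not reported here. The members and lists were chosen with earlier results of these data known. The ratio code was tested on simulated data. Normexp (offset 50) was run with limma 3.58.1 in R 4.3.3, and the rest used pandas 2.3.3 and numpy 2.4.6 under Python 3.11.15. Other alternatives were a common median, stricter or no filters, single labellings or dye orientations, and gene means.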

Additional observations from a re-analysis of the deposited data

How the results depend on the processing

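JARID2 had a lower IP/T and IP signal and a higher total RNA signal in sponge cells under every alternative run. Its log2 IP/T was 1.95 (EV) and 1.48 (sponge) with normexp and quantile normalization, and 2.05 and 1.55 with normexp, loess and Aquantile. With IP in Cy5 alone it was 2.92 and 2.15 and with IP in Cy3 alone 2.47 and 1.67. By single labellings it ranged from 2.57 to 2.82 (EV) and from 1.80 to 2.01 (sponge), and the difference from -1.02 to -0.56. With normexp and quantile normalization its IP RNA differed by -0.15. The median log2 IP/T of the partners in EV cells was 1.07 with a common median, 0.46 with normexp and quantile normalization, 1.14 with labellings within 1.5-fold, 1.07 with IP in Cy3 alone, and 0.77 to 1.1 by single labellings. Their median difference was 0.22 with a common median, under which the median of all retained probes was 0.055, and 0.031 with normexp, loess and Aquantile. With labellings within 1.5-fold the only change among the partners was that A_23_P116913 stood for AEBP2. This probe also stood for AEBP2 with a common median, and EZH2 was absent with normexp. For settings other than the 1.5-fold one the cause was not tested. The median log2 IP/T of all retained probes in EV cells, -0.24, was -0.084 and -0.015 with the normexp settings and -0.041 without the detection filter, and ratios are to be read relative to it. AEBP2 A_24_P18621 was not retained with a common median or with labellings within 1.5-fold, because its labellings differed too much, and neither was EZH2 with normexp. The number of enriched members was 4 to 6 in EV cells and 5 or 6 in sponge cells, and that of the other Polycomb genes in EV cells 6 to 11. No paired analysis was possible because each group is 1 RNA sample and the labels' 2 labellings are no biological replicates. The lower signal over background in Cy5 limits probes near background such as RBBP4 A_24_P912095.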
